A study of Mus musculus with 9 samples.

Results

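The genes described here are 44 interferon-stimulated genes, the antiviral and antigen-processing genes that cells switch on when they sense interferon. They were taken by name from a list of known members of this family, and each was read from its brightest probe set. The list was chosen with earlier results of these data known, so its counts beside those of all genes are a description. Of the 44, 42 could be read from a probe set of the array that carries 1 gene symbol, out of 18193 genes measured in this way. Isg15, the ubiquitin-like protein of the family, was left out because its probe set carries several symbols, and Ifi44 was not matched.

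Gene expression was measured on 9 arrays of primary white adipocytes: 3 control arrays, 3 from cells given PTH(1-34) and 3 from cells given PTHrP(1-34). These peptides are the active amino-terminal fragments of parathyroid hormone and parathyroid hormone-related protein, which act on the same receptor. The cells came from the inguinal fat of male C57BL6 mice aged 30 to 35 days. Stromal-vascular cells of all 3 groups were turned into adipocytes with dexamethasone, insulin, isobutylmethylxanthine and rosiglitazone, then kept with insulin and rosiglitazone and last in medium alone. On day 8 the treated cells received 100 ng/ml of a peptide for 4 h; the labels do not say what the control cells received. The replicates are called biological, but whether each was a separate mouse or culture is not stated, and p-values then reflect only how much these arrays vary. In such bulk samples, fewer cells of a type and less RNA per cell cannot be told apart.

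Type I interferons bind the receptor made of Ifnar1 and Ifnar2 and, through the kinases Jak1 and Tyk2, activate Stat2, which joins Irf9 in the complex ISGF3. This complex binds a promoter element called ISRE and raises transcription of the interferon-stimulated genes. A second element, GAS, serves mainly the response to interferon gamma. Several of the induced proteins are themselves parts of this pathway (Stat2, Irf9, Irf7), so the programme amplifies itself, while Usp18 limits it.

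The adipocyte markers were strong on every array, with a summed intensity of 59427 to 64065 over 7 markers; Cidec, a lipid droplet protein, was the 1 of them that rose with each peptide. Macrophage markers were also present (12 measured, 5 with a mean below 29.0, the 40th percentile of probe set means, called the dim level here). Their summed intensity was 1098 to 1152 in controls, 1188 to 1271 after PTH and 1174 to 1279 after PTHrP, and none of the 12 passed the test with either peptide alone (limma; 2 with each at an unadjusted p below 0.05). With both peptides set together against control, 1 of the 12 rose (limma, adjusted p = 0.032). Lymphocyte markers summed to 168 to 198 over all arrays, with 6 of 7 below the dim level. Endothelial markers, 2 of 5 with a mean below the dim level, summed to 261, 286 and 316 on control arrays 1 to 3, to 245, 214 and 230.2 after PTH and to 218, 233 and 303 after PTHrP. On these control 1 was the lowest control and PTHrP 3 the highest PTHrP array, and none of the 5 passed by limma (2 with PTH and 0 with PTHrP at an unadjusted p below 0.05). Proliferation markers summed to 4139, 4213 and 4201 in controls, 4210, 3786 and 4012 after PTH, and 3508, 4025 and 4113 after PTHrP. None of the 3 measured passed with either peptide. These markers had the same order, as did lymphocyte and dendritic cell markers (Bst2 of the family among the latter). On adipocyte markers control 1 was instead the highest control and PTHrP 3 the lowest PTHrP array. Macrophage and preadipocyte markers had other orders. Preadipocyte and fibroblast markers summed to 38729 to 42109 over all arrays; of 7 measured, Pdgfrb, a growth factor receptor, fell with PTH (-0.31, adjusted p = 0.0111) and with PTHrP (-0.35, adjusted p = 0.00717). The 3'/5' signal ratio of actin, a sign of RNA quality, was 1.45 to 1.51 in controls, 1.52 to 1.61 after PTHrP and 1.59 to 1.65 after PTH. The part of these values in the results was not tested.

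The interferon-stimulated genes also differed between arrays of the same group, and 2 arrays stood apart. Control 1 was the lowest control array for 42 of the 42 genes, as it was for 27.6% of all genes. PTHrP 3 was the highest PTHrP array for 40 of 42 genes, against 32.8% of all genes. Relative to the control mean, the median gene of the family stood at -0.32, 0.20 and 0.18 on the log2 scale on control arrays 1 to 3. It stood at -0.97, -0.89 and -1.04 on the PTH arrays and at -1.11, -0.85 and -0.32 on the PTHrP arrays. So the lowest control and the highest PTHrP array had nearly the same median, whereas the 3 PTH arrays lay close together below both. The median over all 18193 genes lay between -0.02 and 0.01 on every array.

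**Figure D1:**
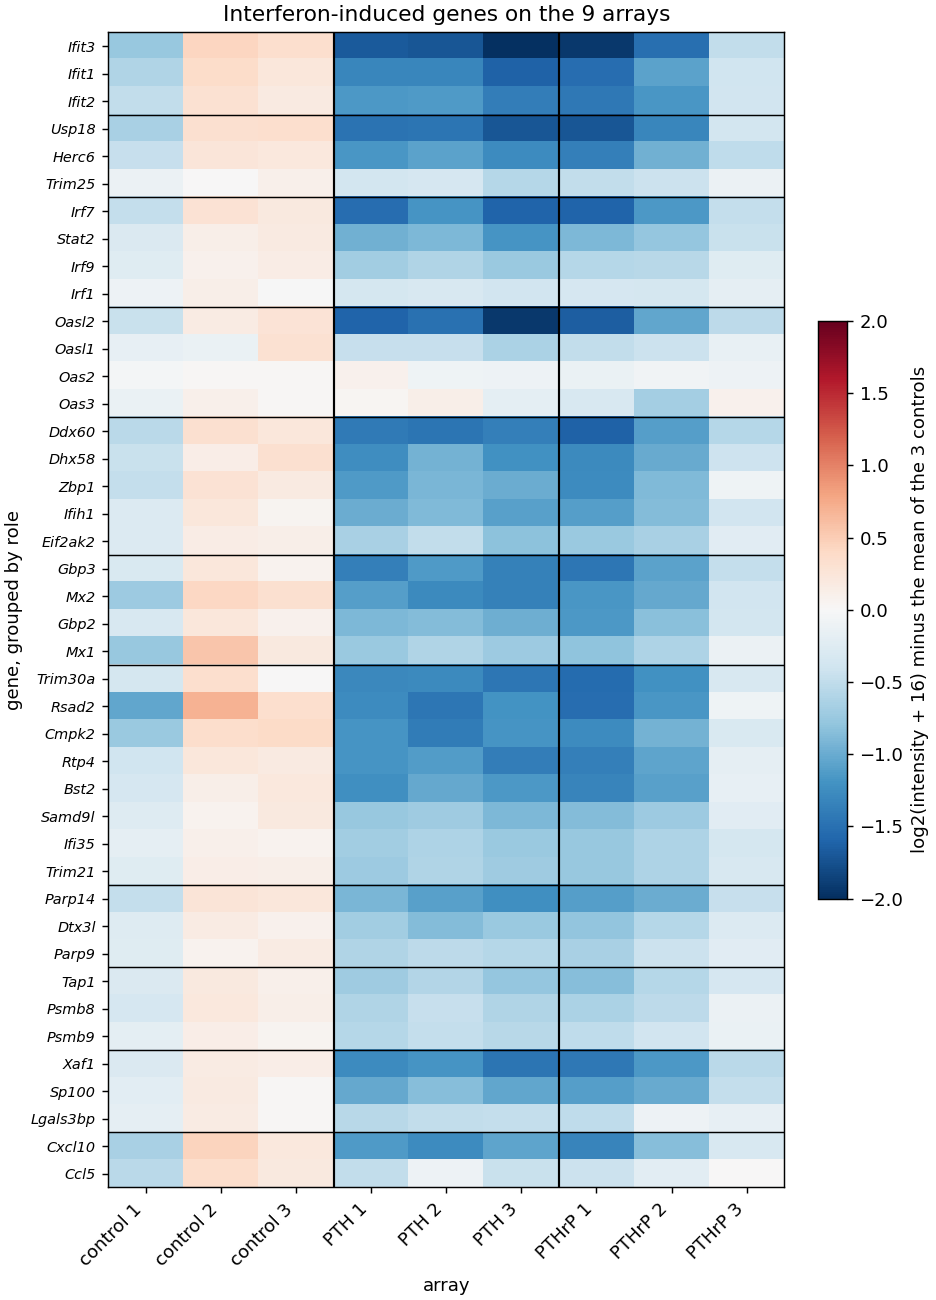
Colours show log2(intensity + 16) minus the mean of the 3 controls for each of the 42 genes (rows, grouped by role) on the 9 arrays (columns; black lines part the groups), blue for lower and red for higher. Control 1 is paler blue than the PTH arrays for most genes, the 3 PTH arrays are blue throughout apart from Oas2 and Oas3, and PTHrP 3 is paler than PTHrP 1 and 2.

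With PTH, 28 of the 42 genes fell, none rose and 14 did not pass the test (limma, adjusted p below 0.05 over all genes). Among all genes tested, 3.14% were called lower, 2.96% higher and 6.1% in either direction. The log2 change was below 0 for all 42, with a median of -0.9996 against -0.0027 over all genes, and it ran from -1.79 for Ifit3 to -0.01 for Oas3. At least 2-fold lower were 21 genes. For 38 genes every PTH array lay below every control, as was the case for 13.2% of all genes, while 12.8% lay above; the exceptions were Oas2, Oas3, Mx1 and Ccl5. The number of calls depended on single arrays: it was 1 without control 2, 2 without control 3, 4 without PTH 1, 6 without PTH 2, 1 without PTH 3 and 15 without PTHrP 2, but 35 without control 1, 29 without PTHrP 1 and 31 without PTHrP 3. The median change stayed between -1.14 and -0.88 over these 9 omissions, and Stat2 passed in each of them. Of all genes, 3.28% were called without control 2, 3.84% without control 3, 4.73% without control 1 and 5.35% without PTHrP 1. For the other omissions the share of all genes called is not given here.

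With PTHrP, 6 genes fell (Stat2, Gbp3, Ifi35, Trim21, Xaf1 and Sp100), none rose and 36 did not pass the test by limma; over all genes 3.03% were called lower, 2.54% higher and 5.57% in either direction. All 42 log2 changes were again below 0, with a median of -0.78 against -0.005 over all genes and a range from -1.31 for Ifit3 to -0.10 for Oas2. For 17 genes the PTHrP arrays all lay below the controls and for none above, against 12% and 10.4% of all genes. At an unadjusted p below 0.05 by limma there were 36 of the 42 genes, beside 3327 of all 18193. Single arrays again decided the count: no gene passed without control 2, control 3, PTHrP 1 or PTHrP 2 (27, 25, 24 and 29 genes at an unadjusted p below 0.05), 2 passed without PTH 1 or without PTH 2, 1 without PTH 3, 16 without control 1 and 27 without PTHrP 3. The median change ran from -1.02 without PTHrP 3 to -0.60 without PTHrP 1. Over all genes the share called was 3.08% without control 2, 3.59% without control 3, 2.82% without PTHrP 1 and 3.85% without control 1. This share is not given here for the other omissions. The comparisons of PTH and of PTHrP share the 3 controls, so a low or high control moves both.

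Set against each other at the same dose and time, the 2 peptides gave no difference that passed the test. None of the 42 genes was called by limma and none had an unadjusted p below 0.05; over all 18193 genes 0% were called and 730 had an unadjusted p below 0.05. The signal was lower with PTH than with PTHrP for 40 genes and higher for Oas2 and Oas3, with a median difference of -0.22. The largest difference was that of Oasl2, -0.61 with a 95% interval from -1.28 to 0.06 (adjusted p = 0.999). Irf9 was the only gene whose PTH arrays all lay below the PTHrP arrays (3.83% of all genes did so, and 5.23% lay above). Without PTHrP 3 the median difference was -0.01, and without PTHrP 1 it was -0.37. These intervals are wide, and the test does not show that the peptides act alike.

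**Figure D2:**
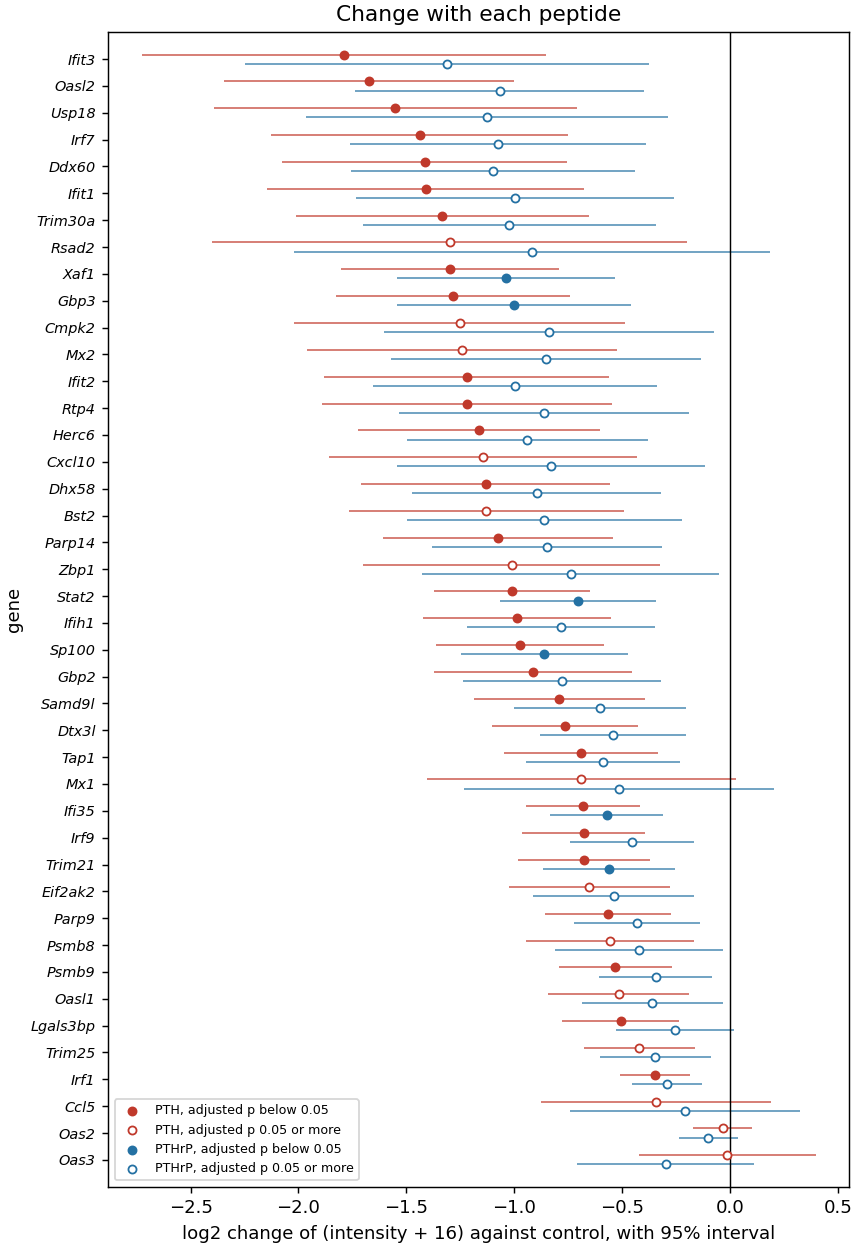
Each gene (rows, sorted by the change with PTH) has its log2 change against control with PTH (red) and with PTHrP (blue); bars are 95% intervals from limma, and filled points passed at an adjusted p below 0.05. All points lie left of 0, 28 of 42 red points and 6 of 42 blue points are filled, and the intervals of the 2 peptides overlap for every gene.

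The 3 IFIT genes code for proteins that bind foreign RNA and stop its translation, and all 3 fell with PTH. The intensity of Ifit3 (Entrez 15959) was 1401, 3208 and 3006 on control arrays 1 to 3, 733, 720.5 and 589 after PTH, and 613, 826 and 1690.4 after PTHrP. Every PTH array lay below every control, but PTHrP 3 lay above control 1. Its log2 change was -1.79 with PTH (SE 0.41, adjusted p = 0.0402) and -1.31 with PTHrP (SE 0.41, adjusted p = 0.119). Ifit1 (Entrez 15957) read 1332, 2622 and 2367 in controls, 807, 809 and 648 after PTH, and 694, 954 and 1528 after PTHrP. Ifit2 (Entrez 15958) read 332, 588 and 540.1 in controls, 204, 208 and 171 after PTH, and 165, 202 and 357 after PTHrP. Both shared the order seen for Ifit3, with the PTH arrays lowest as a group and PTHrP 3 above control 1. Ifit1 fell by 1.41 on the log2 scale with PTH (SE 0.32, adjusted p = 0.04). Ifit2 fell by 1.22 (SE 0.29, adjusted p = 0.0451). With PTHrP their changes of -0.998 for Ifit1 and -0.997 for Ifit2 missed the threshold (adjusted p = 0.132 and 0.0964).

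Promoter letters of some of these genes are shown because the ISRE is the element through which interferon acts on them. RefSeq promoter windows (build GRCm38.p6, 250 bases before to 50 bases after the annotated start) were at hand for 34 of the 44 genes; Usp18, Oas2, Dhx58, Zbp1, Mx1, Mx2, Rtp4, Parp9, Parp14 and Ccl5 had none. The ISRE core searched was TTTC, any 2 bases and TTTC again, and the GAS core was TTC, any 3 bases and GAA, each on both strands. The stretches below hold the core in capitals, with 30 bases on each side, 5′ to 3′ on the gene's strand. In Ddx60 and Cxcl10 the core lies on the opposite strand and so reads GAAA, 2 bases, GAAA.
Ifit3, chr19:34583343-34583446, plus strand: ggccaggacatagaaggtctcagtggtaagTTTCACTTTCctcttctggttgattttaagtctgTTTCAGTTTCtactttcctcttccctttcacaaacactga
Ddx60, chr8:61928004-61928107, plus strand: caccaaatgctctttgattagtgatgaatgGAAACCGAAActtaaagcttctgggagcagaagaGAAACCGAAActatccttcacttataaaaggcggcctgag
Gbp3, chr3:142559969-142560044, plus strand: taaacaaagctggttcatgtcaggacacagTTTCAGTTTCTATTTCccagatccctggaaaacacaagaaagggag
Trim30a, chr7:104465190-104465259, minus strand: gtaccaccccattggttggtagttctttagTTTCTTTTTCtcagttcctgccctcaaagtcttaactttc
Cxcl10, chr5:92349063-92349132, minus strand: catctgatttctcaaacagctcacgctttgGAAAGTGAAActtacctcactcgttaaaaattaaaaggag

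Ifit3 holds the core at positions -156 and -122 from its start and Ddx60 at -53 and -19. In Gbp3 the core begins at -45 and again at -39, so the matches overlap. The window of another listed start of Gbp3 holds no ISRE core. Trim30a holds the core at -36 from 1 of its listed starts and at position 3 from another. Cxcl10 holds it at -213. An ISRE core was found in 15 of the 34 genes with a window (44.1%) and in 3.99% of the 27025 genes with a window in the table. Counted over all windows of these genes, 16 of 24 matches began within 150 bases before the start, and 7 genes held more than 1 within a single window. A GAS core was found in 6 of the 34 genes (17.6%) and in 9.55% of all genes with a window, and 1 ISRE match overlapped a GAS match. Among measured genes with a window, the ISRE core was in 9 of the 23 that fell with PTH (39.1%) and in 5 of the 9 that did not pass (55.6%). A match is a description of the letters and not a bound site.

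In the other role groups the gene with a window that changed most with PTH was Oasl2, Irf7, Herc6, Dtx3l, Tap1 or Xaf1, and none of these 6 windows holds the ISRE core. The windows of Oasl2 and Irf7 are shown whole for comparison with those above; no capitals are used because neither core was found.
Oasl2, chr5:114896684-114896983, plus strand: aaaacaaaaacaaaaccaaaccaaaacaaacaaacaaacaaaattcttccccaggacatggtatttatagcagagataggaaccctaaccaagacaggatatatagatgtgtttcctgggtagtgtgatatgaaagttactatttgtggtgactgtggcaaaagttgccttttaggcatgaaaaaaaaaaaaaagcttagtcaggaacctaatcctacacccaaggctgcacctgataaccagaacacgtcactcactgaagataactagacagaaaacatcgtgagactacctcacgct
Irf7, chr7:141266375-141266674, minus strand: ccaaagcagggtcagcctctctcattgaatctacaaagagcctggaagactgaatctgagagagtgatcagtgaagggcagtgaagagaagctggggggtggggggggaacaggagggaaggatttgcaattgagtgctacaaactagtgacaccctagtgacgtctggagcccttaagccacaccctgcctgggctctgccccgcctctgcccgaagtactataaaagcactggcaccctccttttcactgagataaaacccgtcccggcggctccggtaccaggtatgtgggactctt

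The 4 transcription factors of the list, which carry the interferon signal to the promoters, all fell with PTH, with a median log2 change of -0.85. Stat2 (Entrez 20847), a subunit of ISGF3, read 274, 369 and 385 in controls, 167, 175 and 141 after PTH, and 174, 191 and 246 after PTHrP. No treated array reached the lowest control. The mean was 343 ± 59.8 in controls, 161 ± 17.5 after PTH and 204 ± 37.5 after PTHrP (SD, n = 3 arrays each). Its log2 change was -1.01 with PTH (SE 0.16, adjusted p = 0.00883) and -0.71 with PTHrP (SE 0.16, adjusted p = 0.0396), and it was the only 1 of the 4 factors to pass with PTHrP.

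Irf9 (Entrez 16391), the DNA-binding subunit of ISGF3, read 495, 627 and 655 in controls, 357, 384 and 344 after PTH, and 389, 396 and 496 after PTHrP. The PTH arrays lay below all others, and PTHrP 3 was level with control 1. Irf9 fell by 0.68 with PTH (SE 0.12, adjusted p = 0.0169), and its change with PTHrP was -0.46 (adjusted p = 0.0814). Irf7 (Entrez 54123), the factor that drives the later wave of interferon production, read 697, 1189 and 1116 in controls, 327, 421 and 309.6 after PTH, and 311, 430.1 and 696 after PTHrP. All treated arrays were below the lowest control, though PTHrP 3 almost reached it. Its log2 change was -1.44 with PTH (SE 0.30, adjusted p = 0.0283) and -1.08 with PTHrP (adjusted p = 0.0861). Irf1 (Entrez 16362), induced mainly by interferon gamma, read 1128, 1323 and 1209.5 in controls, 955, 971 and 934 after PTH, and 959, 951 and 1067 after PTHrP. The groups did not overlap here, but the change was small, at -0.35 with PTH (SE 0.07, adjusted p = 0.0262) and -0.29 with PTHrP (adjusted p = 0.0541).

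Of the genes of the Isg15 system, in which Isg15 is joined to and removed from proteins, 2 of 3 measured fell with PTH and none passed with PTHrP. Usp18 (Entrez 24110), which removes Isg15 and dampens receptor signalling, read 664, 1308 and 1325 in controls, 366, 372 and 308 after PTH, and 308, 417 and 811 after PTHrP. PTHrP 3 lay above control 1, while the PTH arrays lay below all controls. Usp18 fell by 1.55 with PTH (SE 0.37, adjusted p = 0.0458) and changed by -1.13 with PTHrP (adjusted p = 0.137). Herc6 (Entrez 67138), the mouse ligase for Isg15, read 331, 551 and 538 in controls, 198, 212 and 183 after PTH, and 169, 231 and 322 after PTHrP. Its 6 treated arrays all lay below the 3 controls, by a small margin for PTHrP 3. Herc6 fell by 1.16 with PTH (SE 0.24, adjusted p = 0.029), and its change with PTHrP was -0.94 (adjusted p = 0.0682). Trim25, a ubiquitin ligase that activates RNA sensing, changed by -0.42 and -0.35 and passed with neither. A probe set of Trim25 that was nearly as bright changed by -0.44 with PTH and did pass (limma, adjusted p = 0.0306 over all probe sets). A dimmer one changed by -0.31 and did not (adjusted p = 0.342).

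The oligoadenylate synthetase family, whose enzymes make the messenger that activates RNase L, was split: 1 of 4 fell with PTH. Oasl2 (Entrez 23962), a synthetase-like protein, read 513, 796 and 857 in controls, 222, 239 and 174 after PTH, and 215, 335 and 486 after PTHrP. No treated array reached a control. It fell by 1.67 with PTH (SE 0.29, adjusted p = 0.0139), and its change with PTHrP was -1.07 (adjusted p = 0.0818). Oas2 (Entrez 246728) read 331, 347 and 349 in controls, 364, 321 and 319 after PTH, and 312, 324 and 319 after PTHrP, so that 1 PTH array was the highest of all 9. Oas3 (Entrez 246727) lay near the dim level, between 15.6 and 38.6 on all arrays, and the groups overlapped. The log2 changes of Oas2 and Oas3 with PTH were -0.04 and -0.01, the smallest of the 42, and the sign of Oas3 turned when arrays were quantile normalised or centred on their median.

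**Figure D3:**
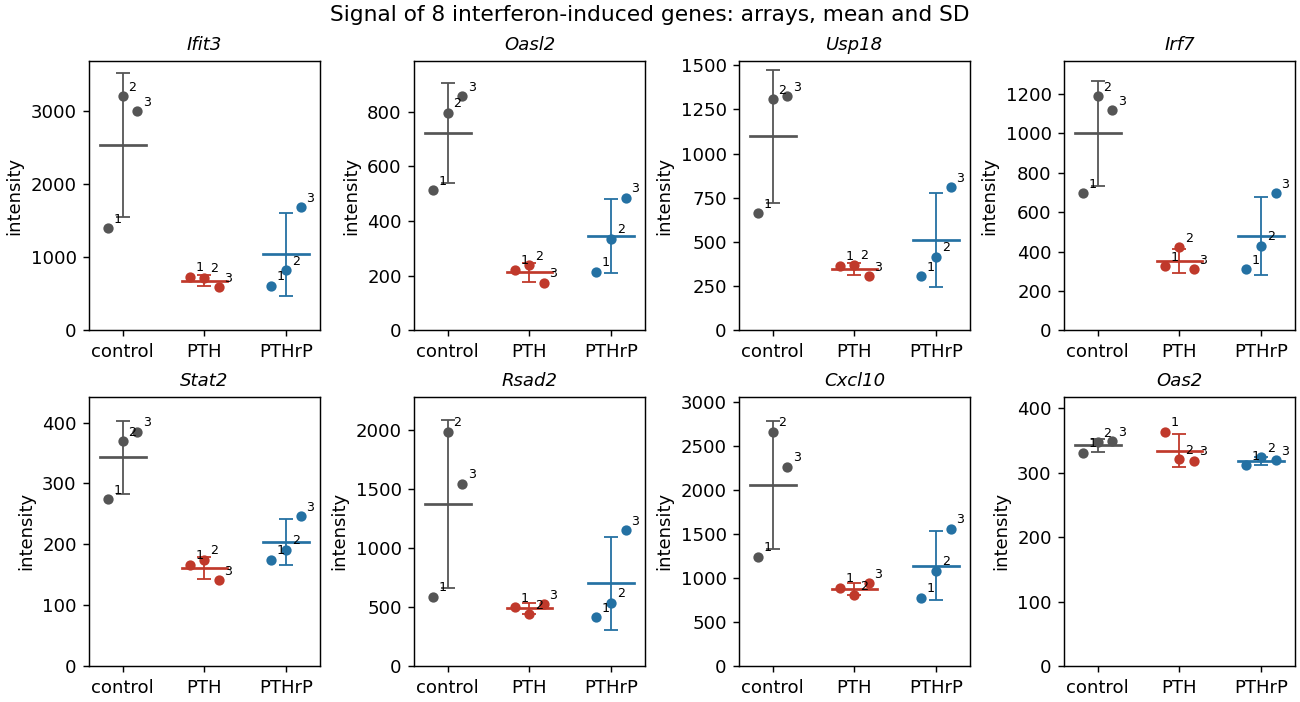
Intensity (linear scale from 0) of 8 genes on each array (points, numbered by replicate), with the group mean (line) and SD (bar; n = 3 arrays a group). For 7 of the genes the PTH points lie close together below all controls, control 1 is the lowest control and PTHrP 3 the highest PTHrP array, while Oas2 stays between 312 and 364 in all groups.

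Among 5 sensors of viral nucleic acid, Ddx60, Ifih1 and Dhx58 fell with PTH, Zbp1 and Eif2ak2 did not pass, and none passed with PTHrP. Ddx60 (Entrez 234311), a helicase that aids RNA sensing, read 115, 221 and 206 in controls, 55.4, 52.8 and 57.5 after PTH, and 45.8, 72.5 and 112 after PTHrP. The PTH arrays differed little from each other, and PTHrP 3 came within a few units of control 1. Its log2 change was -1.42 with PTH (SE 0.29, adjusted p = 0.0256) and -1.10 with PTHrP (adjusted p = 0.0701). Ifih1, which encodes the long double-stranded RNA sensor MDA5, fell by 0.99 with PTH, and Dhx58, which encodes its regulator LGP2, fell by 1.13. Eif2ak2, the kinase PKR that stops translation, changed by -0.65 (adjusted p = 0.0558), and Zbp1, which senses Z-form nucleic acids, by -1.01 (adjusted p = 0.0988).

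The interferon-induced GTPases act on viral capsids (Mx) or on the membranes around intracellular microbes (Gbp). Gbp3 (Entrez 55932) read 1612, 2359 and 2113 in controls, 766, 908 and 771 after PTH, and 726, 941 and 1430.5 after PTHrP. It lay below the controls on all 6 treated arrays and passed with both peptides, at -1.29 with PTH (SE 0.24, adjusted p = 0.0169) and -1.001 with PTHrP (SE 0.24, adjusted p = 0.0485). Gbp2 fell by 0.91 with PTH, read from a probe set whose suffix marks it as open to cross-hybridisation. The brightest probe sets of Ifi35 and Trim25 also carry a suffix, _s_at, for probes that can match several transcripts. Mx2 (Entrez 17858) read 98, 237 and 219.6 in controls, 72.1, 62.7 and 58.1 after PTH, and 68.8, 77.1 and 129 after PTHrP. Its change of -1.24 with PTH did not pass (SE 0.31, adjusted p = 0.0589), with control 1 not far above the PTH arrays. Mx1 overlapped between the groups and changed by -0.69 (adjusted p = 0.283).

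Of 8 other antiviral effectors, 5 fell with PTH, and 2 of these, Ifi35 and Trim21, also fell with PTHrP. Trim30a (Entrez 20128), an interferon-induced tripartite motif protein, read 1467, 2369 and 1884 in controls, 759, 768 and 675 after PTH, and 631, 799 and 1497 after PTHrP. PTHrP 3 stood just above control 1, while the other 5 treated arrays lay far below it. It fell by 1.33 with PTH (SE 0.30, adjusted p = 0.0364), and the change with PTHrP was -1.02 (adjusted p = 0.0973). Rsad2 (Entrez 58185), the radical enzyme viperin, read 588, 1985 and 1546 in controls, 500.1, 439 and 522 after PTH, and 415, 538 and 1152 after PTHrP. It had the widest spread among controls of all 42 genes (SD 0.91 on the log2 scale), and neither its change with PTH of -1.30 (SE 0.48, adjusted p = 0.183) nor that with PTHrP of -0.92 (adjusted p = 0.371) passed. Cmpk2 (Entrez 22169), a nucleotide kinase coded beside Rsad2, read 210.4, 472 and 483 in controls, 152, 128 and 152 after PTH, and 143, 181 and 292 after PTHrP. Its groups were ordered as those of Rsad2, and its change with PTH was -1.25 (SE 0.33, adjusted p = 0.0711).

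The remaining effectors had smaller changes or smaller spread. Ifi35, a regulator of innate immune signalling, had means of 2452 ± 254 in controls, 1517 ± 66.8 after PTH and 1649.8 ± 247 after PTHrP (SD, n = 3 arrays each), and all treated arrays lay below the controls. Ifi35 fell by 0.68 with PTH (SE 0.11, adjusted p = 0.0118) and fell by 0.57 with PTHrP (adjusted p = 0.0264). Trim21, the cytosolic antibody receptor, changed by -0.68 with PTH and -0.56 with PTHrP, both past the threshold (adjusted p = 0.0227 and 0.0491). Samd9l, a restriction factor of poxviruses, fell by 0.79 with PTH, and Rtp4, a receptor transporter protein, fell by 1.22. Bst2, which tethers budding virus to the cell surface, changed by -1.13 and missed the threshold (adjusted p = 0.0533). Bst2 is also 1 of the 7 dendritic cell markers listed, of which none passed with either peptide alone (1 with PTH and 2 with PTHrP at an unadjusted p below 0.05). With both peptides together Bst2 was the 1 marker of the 7 that passed, and it fell (limma, adjusted p = 0.0407).

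Genes of antigen processing, of ADP-ribosylation and of cell death made up most of the rest. The ADP-ribosyl transferases Parp9 and Parp14 and the ligase Dtx3l, which pairs with Parp9, all fell with PTH, with log2 changes of -0.57, -1.08 and -0.77. Psmb9, a subunit of the immunoproteasome, fell by 0.53 and Tap1, which carries peptides to class I molecules, fell by 0.69, while Psmb8, another such subunit, changed by -0.56 and did not pass (adjusted p = 0.108). None of these 6 genes passed with PTHrP.

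Xaf1 (Entrez 327959), a pro-apoptotic partner of the inhibitor XIAP, read 1713, 2343 and 2303 in controls, 868, 915 and 756 after PTH, and 769, 939 and 1436 after PTHrP. Every treated array lay below every control. Xaf1 fell by 1.30 with PTH (SE 0.22, adjusted p = 0.0122) and fell by 1.04 with PTHrP (SE 0.22, adjusted p = 0.0326). Sp100, a nuclear body protein, had the same order of groups and fell with both, at -0.97 with PTH and -0.86 with PTHrP (adjusted p = 0.0137 and 0.025). Lgals3bp, a secreted glycoprotein, fell by 0.51 with PTH, and its change with PTHrP was -0.26 (adjusted p = 0.305).

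Neither of the 2 chemokines passed (1 with each peptide at an unadjusted p below 0.05). Cxcl10 (Entrez 15945), which attracts T cells through Cxcr3, read 1245, 2665 and 2266 in controls, 889, 807 and 939 after PTH, and 777, 1084 and 1559.9 after PTHrP. The PTH arrays lay below the controls, whereas PTHrP 3 lay between control 1 and the other controls. Its change was -1.15 with PTH (SE 0.31, adjusted p = 0.0754) and -0.83 with PTHrP (adjusted p = 0.199). Ccl5 (Entrez 20304), a chemokine for T cells and monocytes, read 15.8, 43.4 and 37.2 in controls, 17.2, 27.4 and 18.1 after PTH, and 18.6, 24.2 and 30.7 after PTHrP. Its mean was below the dim level, the groups overlapped, and its changes of -0.34 and -0.21 had adjusted p-values of 0.5 and 0.713.

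When both peptides were set together against control, 30 genes fell and none rose by limma, against 4.57% of all genes called lower, 3.84% higher and 8.4% in either direction. The median change was -0.88. For 16 genes all 6 treated arrays lay below the 3 controls and for none above, against 8.11% and 7.48% of all genes. The count was 4 without control 2 or without control 3, against 4.73% and 5.37% of all genes called. Without control 1 it was 35 (6.08% of all genes called), and without PTHrP 1 it was 21 (6.46%). It was 15 without PTH 1, 18 without PTH 2, 13 without PTH 3 and 16 without PTHrP 2. For these last omissions the share of all genes called is not given here. Stat2, Ifi35, Xaf1 and Sp100 passed in each of the 9 fits that left out 1 array.

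The spread within a group was itself wide for this family. The median SD on the log2 scale was 0.29 among the controls, 0.11 among the PTH arrays and 0.38 among the PTHrP arrays, against 0.079, 0.060 and 0.076 over genes above the dim level. The SD was larger among controls than among PTH arrays for 39 of 42 genes (58.9% of all genes) and larger among PTHrP than PTH arrays for 41 of 42 (58.2%). Among the controls it ran from 0.04 for Oas2 to 0.91 for Rsad2.

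Single arrays can be placed against each other in the same way. Control 1 lay above all 3 PTH arrays for 38 of 42 genes (33.5% of all genes), and PTHrP 3 did so for 40 (25.9%), with Oas2 and Oas3 the exceptions. PTHrP 1 and PTHrP 2 both lay below control 1 for 39 genes (39.6% of all genes). Control 1 lay below PTHrP 3 for 25 genes, against 45.2% of all genes. PTHrP 3 rose above control 2 or control 3 for Oas3 alone. PTHrP 1 lay within or below the range of the PTH arrays for 41 of 42 genes (75.2% of all genes), the exception being Irf9. PTHrP 2 did so for 15 genes (74.4% of all genes) and lay above all 3 PTH arrays for the other 27 (25.6%).

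**Figure D4:**
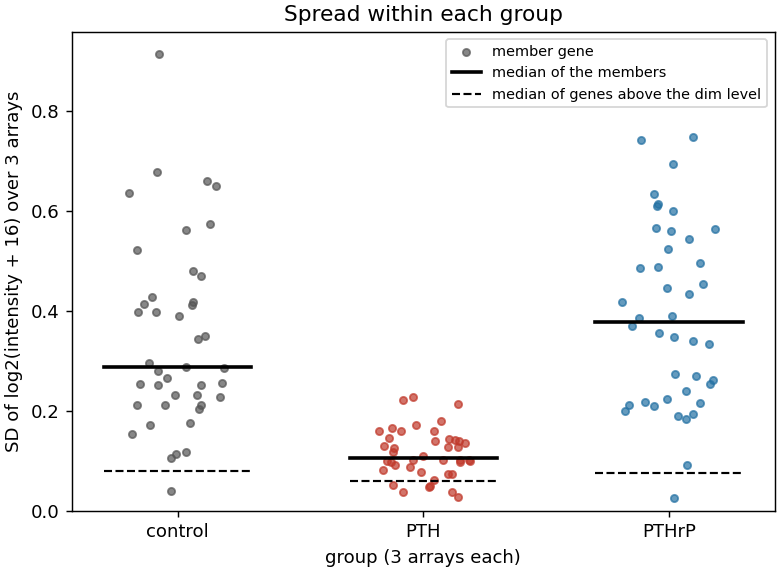
Each point is the SD of log2(intensity + 16) of a gene of the family over the 3 arrays of a group (x axis); solid lines are the medians of the 42 genes and dashed lines the medians of genes above the dim level. The solid lines stand at 0.29, 0.11 and 0.38, and the dashed lines at 0.079, 0.060 and 0.076.

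Several of the genes lie side by side in the genome, and neighbours did not always change by the same amount. By RefSeq order (GRCm38.p6), 17 of the 42 genes found in the gene table have another listed gene with at most 3 protein-coding genes between them. Rsad2 and Cmpk2 are adjacent and changed with PTH by -1.30 and -1.25. Oasl2 and Oasl1 are adjacent as well, and their changes were -1.67 and -0.52. Oas2 and Oas3, with the smallest changes with PTH of the list, are adjacent too.

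Where a gene had further probe sets, these gave a second reading. Of the 42 genes, 20 had more than 1 probe set, and 21 of their 29 other probe sets lay above the dim level. All 21 were lower with PTH, 9 of them past the threshold, and all 21 were lower with PTHrP, 1 past the threshold (p-values here adjusted over all probe sets with 1 symbol). They differed in size, however: the other probe set of Xaf1 changed by -0.07 with PTH (adjusted p = 0.894) and -0.20 with PTHrP. That of Stat2 changed by -0.46 with PTH and -0.35 with PTHrP, less than its brightest. A further set of Herc6 changed by -0.38 with PTH, and a further set of Eif2ak2 by -0.28. The other set of Ddx60 changed by -1.60 with PTH, more than its brightest. When probe sets were averaged in place of taking the brightest, the change of Xaf1 was -0.69 with PTH and -0.62 with PTHrP. In the same way the change with PTH became -0.54 for Dhx58 and -0.23 for Tap1, which then missed the threshold (adjusted p = 0.126). Close relatives (the Ifit3 and Trim30 copies, Gbp, Mx and Oas genes) may share probes, so their separate values are uncertain.

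The parts of the pathway above these genes were read from separate lists. Of 14 listed interferons 8 were measured, 6 of them with a mean below the dim level, and none passed by limma with either peptide (1 with each at an unadjusted p below 0.05). Ifnb1, interferon beta, had a mean of 34.2 ± 5.51 in controls, 41.7 ± 1.84 after PTH and 43 ± 4.7 after PTHrP (SD, n = 3 arrays each), and its log2 changes of 0.21 and 0.24 did not pass (adjusted p = 0.25 and 0.199). None of the 6 interferon receptor genes passed by limma with either peptide, and none had an unadjusted p below 0.05. The log2 change of Ifnar1 was 0.04 with PTH and 0.03 with PTHrP, and that of Ifnar2 was -0.02 and -0.03.

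Of 11 JAK-STAT genes, 3 rose and none fell with each peptide. Stat3, the main factor downstream of interleukin-6 type cytokines, rose by 0.26 with PTH and 0.30 with PTHrP (adjusted p = 0.0319 and 0.0202). Socs3, an inhibitor of such signalling, rose by 0.30 and 0.36 (adjusted p = 0.0308 and 0.0153). Ptpn2, a phosphatase that acts on Jak1, rose by 0.27 and 0.23 (adjusted p = 0.0195 and 0.0358). Jak1 changed by -0.06 with PTH and 0.02 with PTHrP. Of 16 genes that sense nucleic acids or induce interferon, 2 fell with PTH, the RNA sensor Ddx58 (-0.79, adjusted p = 0.0151) and the endosomal receptor Tlr3 (-0.64, adjusted p = 0.0343); with PTHrP none passed, 3 having an unadjusted p below 0.05. Both of these are induced by interferon as well.

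A further list of 65 interferon-induced genes, 57 of them measured, was set beside the family. It too was chosen with earlier results of these data known. Of the 57, 55 had a log2 change below 0 with PTH, with a median of -0.41 against -0.0027 over all genes. By limma 19 fell with PTH and none rose, against 3.14% of all genes called lower and 2.96% higher. Those that fell included Irgm1 (-1.17), Irgm2 (-1.07), Iigp1 (-1.01) and Gbp7 (-1.09), which are GTPases against intracellular microbes, and Slfn8 (-1.05), Trim34a (-1.13) and Phf11d (-1.26). The others that fell with PTH were Oas1b, Tap2, Pml, Tor3a, Slfn5, Nlrc5, Trim12a, Tdrd7, Parp11, Parp12, Mndal and Daxx, with log2 changes from -0.94 for Tor3a to -0.32 for Tap2. With PTHrP 8 fell and none rose, against 3.03% of all genes called lower and 2.54% higher. The 8 were Oas1b, Tap2, Samhd1, Pml, Cxcl11, Slfn5, Trim34a and Tdrd7. The median change of the list with PTHrP was -0.33. The median gene of this list stood at -0.17, 0.12 and 0.05 on the control arrays, at -0.41, -0.39 and -0.46 on the PTH arrays and at -0.46, -0.38 and -0.14 on the PTHrP arrays. So control 1 was again the lowest control and PTHrP 3 the highest PTHrP array.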

How the data were processed

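Gene expression of 9 samples was measured on Affymetrix arrays, 1 array a sample. The authors deposited 1 intensity per probe set and array; from the values the scale is linear, and no source used here gives the summary, background correction or scaling. Groups and replicate numbers were taken from the labels. Of 45101 probe sets, 64 control probe sets were left out; 34945 of the others carry 1 gene symbol, 932 several and 9160 none in the platform annotation. Each of 18193 genes was read from its brightest probe set. The deposited intensities were turned into log2(intensity + 16), with no further scaling, since the array medians lay between 48.2 and 52.6. A fold change on this scale understates the change of dim genes.

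All 9 arrays were fitted with a mean per group in limma 3.58.1 (R 4.3.3; lmFit and eBayes, two-sided), with p-values adjusted by Benjamini-Hochberg over all 18193 genes and a threshold of 0.05. The script was tested on simulated data. Arrays carry no depth; their number, 3 a group, limits the precision. Every array's value is given for the 12 genes with the largest change with each peptide and for Irf1, Irf7, Irf9, Stat2, Cxcl10 and Ccl5; genes of other lists are named where they passed with a peptide, with Ifnar1, Ifnar2 and Jak1 always. Ifi35, Sp100, Oas2 and Oas3 are described beyond that rule. The listed genes, the other lists and the tests were chosen with earlier results of these data known. Other scalings, pseudocounts, a filter on dim genes, the mean of probe sets, trended and robust variances, array weights, the replicate block, fits of only the compared groups and the omission of each array were tried. Plots used matplotlib 3.10.9 (Python 3.11.15).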

Additional observations from a re-analysis of the deposited data

How the results depend on the processing

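The direction held for 41 of 42 genes with PTH and for 42 of 42 with PTHrP in every alternative that tested the gene (20, or 19 for Ccl5 and Oas3, which the filter on dim genes left out); the exception was Oas3, whose change with PTH was 0.010 after quantile normalisation, 0.0026 after median centring and -0.078 to 0.075 without 1 array, above 0 without control 2 (0.037) or PTH 3 (0.075). Calls were less stable than directions. With PTH, the 28 calls (6.1% of all genes called in either direction) became 15 with a pseudocount of 1 (5.38%). With PTHrP, the 6 calls (5.57% of all genes called) became 24 with the filter on dim genes (15.3% of the genes kept). They became 22 with a pseudocount of 64 (8.05%) and 13 with trended and robust variances (9.06%). Averaging each gene's probe sets left 3 calls (3.99%), while a pseudocount of 1 left 2 (4.82%). Fitting only the compared groups left 0 (2.5%), with 30 genes of the family at an unadjusted p below 0.05. The higher counts thus came with a larger share of all genes called, and the lower counts with a smaller share. Leaving out 1 array at a time gave 1 to 35 calls with PTH, 0 to 27 with PTHrP and 4 to 36 for both peptides together; PTH against PTHrP gave 0 calls throughout. Deviations from the group mean correlated between -0.254 and 0.185 for same-numbered arrays of 2 groups. For differently numbered arrays the range was -0.246 to 0.314. With 3 arrays a group, these values cannot decide whether the replicate numbers pair the arrays. With the replicate number as a block, calls were 20 with PTH (3.69% of all genes), 4 with PTHrP (3.16%) and 30 for both (5.68%). Rsad2, with the widest spread among controls, passed with PTH in 1 of its 20 alternatives, the omission of control 1.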
